A study of Mus musculus with 6 samples.

Results

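The genes described here are 9 markers of the fetal or repairing gut epithelium, Tm4sf1, Emp1, Anxa1, Anxa3, Ly6a, Msln, Il33, Spp1 and Clu. They were taken by symbol from the 54418 Ensembl mouse genes of the deposited count table. All 9 had a row, and all 9 passed the filter on low counts together with 14714 genes in all. RNA was measured in mouse organoids, epithelial cells grown in gel as small hollow structures, which the labels name AKP. The series title places them in the study of colorectal cancer, and no label lists the alleles behind the name. There were 3 libraries labelled GATA6KO, in which Gata6 was targeted, and 3 labelled Control, and both groups share the AKP background. The labels give neither the lesion in Gata6 nor the number of clones behind a group. Whether replicates were separate cultures is not said either, so the p-values rest on the spread among 3 libraries a group, which may be technical.

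Intestinal epithelium of the mouse fetus, before crypts form, expresses a set of genes that is largely switched off in the adult crypt. Adult epithelium turns many of them on again while it repairs damage, and Ly6a, the gene of the surface antigen Sca-1, is the marker most used to follow that state. In this setting the YAP/TEAD and AP-1 factors are known as drivers of such genes, while GATA6 belongs to the factors that maintain intestinal epithelial identity.

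Total estimated counts ran from 22973245 to 31328415 per library. Gata6 itself had 14.3, 16.03 and 8.24 CPM (counts per 1000000, scaled by TMM) in GATA6KO replicates 1 to 3, against 25.3, 23.2 and 28.0 CPM in Control replicates 1 to 3. Its transcript was thus lower in each GATA6KO library but present in all of them. Of 12 intestinal epithelial markers, 12 were expressed enough to test, and Epcam averaged 686 CPM in GATA6KO and 859 CPM in Control. Spp1, Msln and Ly6a are also known from macrophages, mesothelium and endothelium. Of 6 mesothelial markers, Lrrn4 reached 83 counts in a library and the other 5 at most 2. Of 9 immune markers, Cd68, a lysosomal protein, reached 425 counts and the other 8 at most 11. Of the endothelial markers other than Ly6c1, the 5 counted had at most 16 counts. Their summed level was 0.267 to 0.667 CPM in GATA6KO and 0.277 to 0.500 CPM in Control. Ly6c1, set apart because it is also on the list of further fetal and repair genes, reached 21245 counts. It averaged 347 CPM in GATA6KO and 617 CPM in Control. Of 9 fibroblast markers none had more than 10 counts. The summed level of the mesothelial list ran from 0.836 to 2.75 CPM in GATA6KO and from 2.32 to 2.70 CPM in Control, and that of the immune list from 3.20 to 5.82 CPM in GATA6KO and from 11.4 to 14.5 CPM in Control. Most of the immune sum was Cd68, at a mean of 3.43 CPM in GATA6KO and 11.9 CPM in Control. Cd68, the 1 gene tested of that list, was called lower (log2 fold change -1.79, edgeR adjusted p = 0.0190). It was not called without any 1 of the Control replicates (adjusted p of up to 0.0958). The fibroblast list summed to 0.459 to 0.734 CPM in GATA6KO and to 0.534 to 0.728 CPM in Control.

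The markers did not move one way. Tm4sf1 and Anxa3 fell, Il33 rose, and the other 6 did not pass the test at an adjusted p of 0.05 (edgeR's quasi-likelihood test, adjusted over all genes tested). So 3 of 9 markers were called, where 12.4% of all genes tested were called, 6.92% higher and 5.47% lower. In these bulk libraries fewer cells that express a marker and less of its RNA per cell cannot be told apart. The median log2 fold change of the 9 was -0.38, which is the value of Spp1, against 0.02 over all genes tested. That median rested on single libraries: it was 0.11, -0.66 and 0.14 without GATA6KO replicates 1, 2 and 3. The value of Spp1 also depended on the method, at -1.98 with limma-voom and -2.02 with the replicate number as a block. The values of the 2 groups did not overlap for 6 markers, 2 higher and 4 lower in GATA6KO, as was the case for 40.8% of all genes tested. A 2-sided exact permutation test of 3 against 3 values gave p = 0.1 for each of these 6, the smallest that this design allows. Within GATA6KO, replicate 2 had the highest level of the 3 libraries for 8 of the 9 markers. For Anxa1, Spp1 and Clu that library lay above all Control libraries, while GATA6KO replicates 1 and 3 lay below all of them.

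The upstream sequences of Tm4sf1, the marker with the largest fall, of Il33, the one that rose, and of Spp1, the one that varied most between GATA6KO libraries, are shown because the text turns on these genes. Each is the stretch of 250 bases that ends just before a RefSeq transcript start (GRCm38.p6), written 5′ to 3′ on the strand of the gene. Capitals mark CATTCC or its reverse GGAATG, the core of the motif that TEAD factors bind. The Tm4sf1 stretch is chr3:57301989-57302238 on the minus strand, that of Spp1 is chr5:104434861-104435110 on the plus strand, and those of Il33 are chr19:29924863-29925112 and chr19:29945540-29945789 on the plus strand, the second ahead of an internal start. None of the 4 overlaps an annotated exon of GENCODE M21.
Tm4sf1: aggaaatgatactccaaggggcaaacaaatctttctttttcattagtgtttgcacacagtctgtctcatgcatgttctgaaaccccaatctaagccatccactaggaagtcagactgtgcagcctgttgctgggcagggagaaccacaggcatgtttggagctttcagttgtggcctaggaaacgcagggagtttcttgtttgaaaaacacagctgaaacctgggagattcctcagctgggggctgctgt
Spp1: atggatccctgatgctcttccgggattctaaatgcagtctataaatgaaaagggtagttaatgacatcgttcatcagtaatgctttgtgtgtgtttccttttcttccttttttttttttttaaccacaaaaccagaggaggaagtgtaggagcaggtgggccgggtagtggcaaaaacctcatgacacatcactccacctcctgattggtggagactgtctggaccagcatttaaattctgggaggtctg
Il33, first start: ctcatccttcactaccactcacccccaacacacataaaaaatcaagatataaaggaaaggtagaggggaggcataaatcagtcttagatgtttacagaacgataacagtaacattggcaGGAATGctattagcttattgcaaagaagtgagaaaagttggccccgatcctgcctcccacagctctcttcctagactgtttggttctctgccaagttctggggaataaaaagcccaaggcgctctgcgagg
Il33, internal start: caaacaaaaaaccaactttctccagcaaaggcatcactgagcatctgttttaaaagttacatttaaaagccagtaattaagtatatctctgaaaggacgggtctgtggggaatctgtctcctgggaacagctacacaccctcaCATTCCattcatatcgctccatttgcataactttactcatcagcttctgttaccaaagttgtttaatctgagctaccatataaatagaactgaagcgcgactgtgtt

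Tm4sf1, Emp1, Anxa1, Il33 and Spp1 matched the RefSeq promoter table, with 8 starts among them, and motifs were searched on both strands of the 250 bases before each. The GATA motif AGATAA (reverse TTATCT) was in 0 of the 8 stretches and in 9.99% of the 32851 stretches of all genes. CATTCC was in 3 of the 8, both Il33 starts and the start of Anxa1, and in 12.6% of all. The AP-1 motif TGACTCA (reverse TGAGTCA) was in 1 of the 8, a start of Emp1, and in 4.46% of all. The Anxa1 stretch and this Emp1 stretch overlap annotated exons of their own genes, so these matches may lie in transcribed sequence. No stretch of the 8 held more than 1 of the motifs. These are matches of letters in short windows and say nothing of binding. Ly6a, Anxa3, Clu and Msln had no entry.

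Among the 4-pass membrane proteins, Tm4sf1 (ENSMUSG00000027800, mm10 chromosome 3, 57285611 to 57301988) had the largest fold change of the 9. It encodes a surface protein related to tetraspanins, known in tumour and endothelial cells for its part in adhesion and migration. Tm4sf1 had 0.568, 3.31 and 1.67 CPM in GATA6KO replicates 1 to 3, against 24.4, 27.8 and 25.6 CPM in Control replicates 1 to 3. Every GATA6KO library was far below every Control library, with 17, 101 and 50 counts against 557, 802 and 767 counts. This was a log2 fold change of -3.80 with an SE of 0.55 (edgeR adjusted p = 0.00921). The call was lost by a small margin without Control replicate 3 (adjusted p = 0.0532), where the log2 fold change was -3.82. Of the 5 genes of the Tm4sf family, 2 were expressed enough to test, and both fell. Tm4sf20 had 2.64, 7.74 and 11.7 CPM in GATA6KO and 48.9, 59.7 and 54.6 CPM in Control (log2 fold change -2.88, adjusted p = 0.0147). It was not called without any 1 of the Control replicates (adjusted p of up to 0.0726).

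Emp1 (ENSMUSG00000030208, chromosome 6, 135362545 to 135383173) encodes another small 4-pass protein, of the Pmp22 family, and is known from colorectal cancer cells with high potential to relapse in the liver. Emp1 had 777, 672 and 510 CPM in GATA6KO replicates 1 to 3, against 908, 935 and 1095 CPM in Control replicates 1 to 3. The groups did not overlap, but the difference did not pass the test (log2 fold change -0.58, SE 0.17, edgeR adjusted p = 0.0695). It was the one marker of the 9 for which GATA6KO replicate 1 and not replicate 2 was the highest of its group. DESeq2 called Emp1 lower (adjusted p = 0.0148), as did edgeR with no filter on low counts (0.0425) and without GATA6KO replicate 1 (0.0234). These were the 3 of 15 alternatives that called Emp1. Without any 1 of the Control replicates the edgeR adjusted p was 0.159 to 0.231, and with the replicate number as a block 0.136. Of the 4 genes of its family, all tested, 1 rose: Pmp22, a component of peripheral myelin, with 30.8, 58.5 and 45.1 CPM in GATA6KO and 19.4, 21.2 and 20.98 CPM in Control (log2 fold change 1.13, adjusted p = 0.0257, not called without any 1 of the Control replicates or GATA6KO replicate 3).

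**Figure D1:**
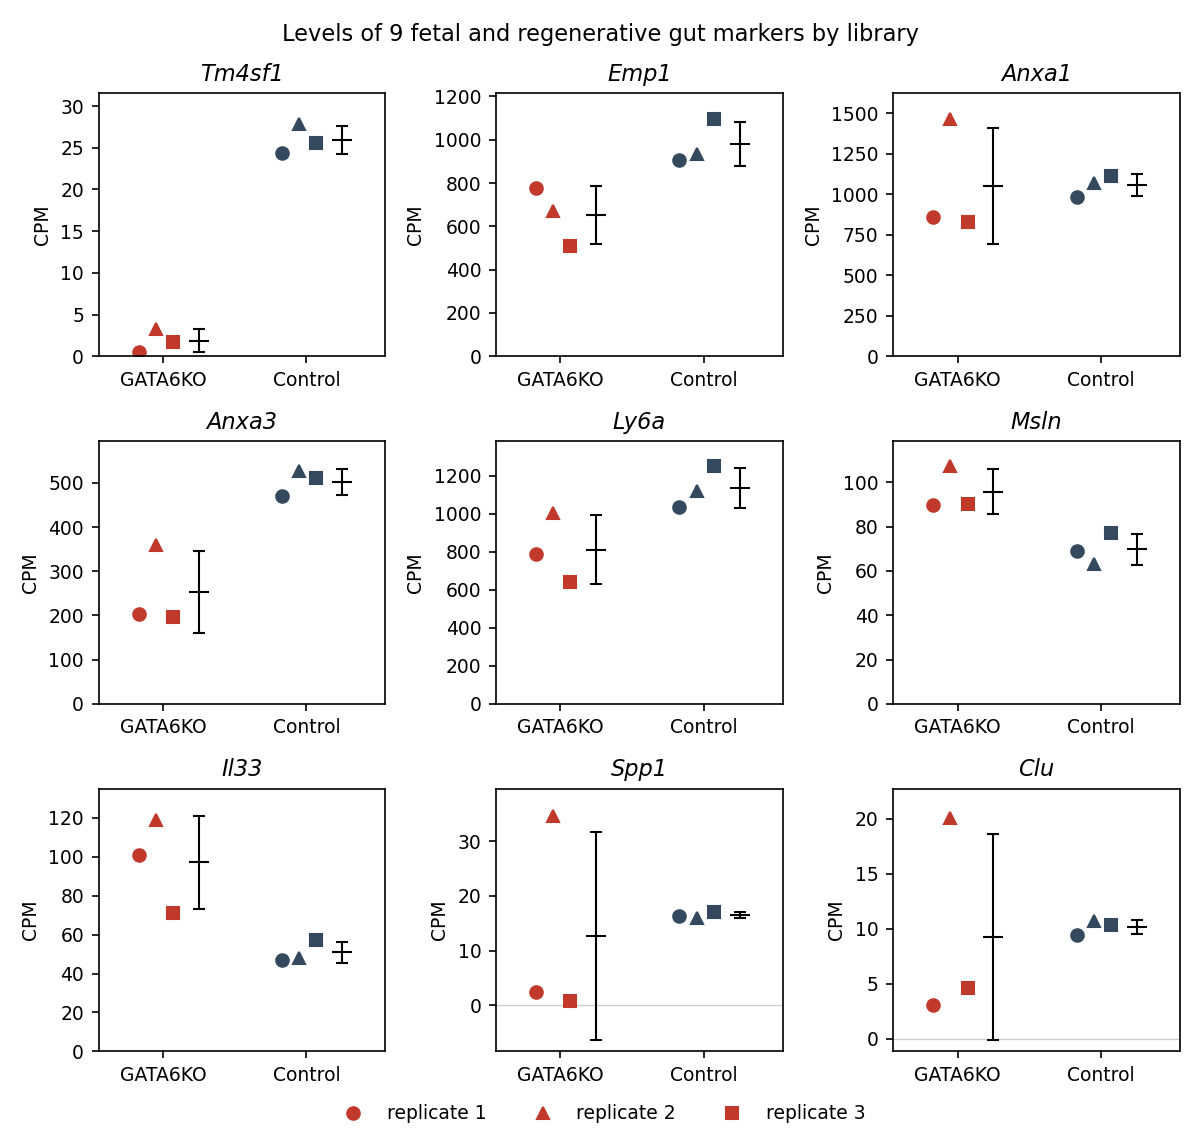
Level of each of the 9 markers in CPM (TMM-scaled, linear axes) in the 3 GATA6KO libraries (red, left) and the 3 Control libraries (blue, right); symbols give the replicate, and black bars the mean ± SD over 3. Control libraries lie close together in each panel, while Spp1 ran from 0.8005 to 34.7 CPM and Clu from 3.04 to 20.0 CPM within GATA6KO.

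The annexins are calcium-dependent proteins that bind membrane phospholipids. Anxa3 (ENSMUSG00000029484, chromosome 5, 96793339 to 96845966) had 203, 359 and 196 CPM in GATA6KO replicates 1 to 3, against 469, 526 and 512 CPM in Control replicates 1 to 3. All GATA6KO libraries were lower, with replicate 2 nearest to Control. The fit gave a log2 fold change of -0.99 (SE 0.24, edgeR adjusted p = 0.0439). The call sat close to the threshold: it was lost without any 1 of the 3 Control replicates or of GATA6KO replicates 1 and 3 (adjusted p of 0.0623 to 0.161), with scaling to the library total alone (0.0558) and with no filter on low counts (0.0549). Without GATA6KO replicate 2 it was firmer, with a log2 fold change of -1.33 (adjusted p = 0.00187).

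Anxa1 (ENSMUSG00000024659, chromosome 19, 20373428 to 20390944), which encodes an annexin known for limiting inflammation and aiding wound closure, was not separated by genotype. Anxa1 had 860, 1462 and 830 CPM in GATA6KO replicates 1 to 3, against 980, 1067 and 1115 CPM in Control replicates 1 to 3. GATA6KO replicate 2 was above all Control libraries, and GATA6KO replicates 1 and 3 were below all of them. Its log2 fold change of -0.0044 had an SE of 0.23 (edgeR adjusted p = 0.992), and its sign turned in 5 of 15 alternatives. Without GATA6KO replicate 2 it was -0.32 (adjusted p = 0.0717).

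Of the 12 annexin genes, 10 were expressed enough to test. Anxa2 and Anxa3 fell, 0 rose, and the median log2 fold change of the 10 was -0.42. Anxa2, which with S100a10 forms a complex at the plasma membrane, had 1116, 874 and 948 CPM in GATA6KO and 2171, 2456 and 2741 CPM in Control. Its log2 fold change was -1.33 (SE 0.14, adjusted p = 0.00355), and it was called without each library in turn (adjusted p of up to 0.0271). S100a10 had 215, 307 and 233 CPM in GATA6KO and 362, 391 and 423 CPM in Control (log2 fold change -0.64, adjusted p = 0.0404), and was not called without any 1 of the Control replicates or GATA6KO replicate 3. Anxa6 had 251, 358 and 148 CPM in GATA6KO and 134, 131 and 134 CPM in Control, which did not pass the test (log2 fold change 0.93, adjusted p = 0.0837). The tested annexins Anxa7, Anxa8 and Anxa11 lie on chromosome 14, which stood apart in GATA6KO replicate 2, as given with Clu, and none of these was called.

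Both markers held at the cell surface by a lipid (GPI) anchor were expressed in all libraries. Ly6a (ENSMUSG00000075602, chromosome 15, 74994877 to 74998031) had 791, 1003 and 643 CPM in GATA6KO replicates 1 to 3, against 1037, 1121 and 1250 CPM in Control replicates 1 to 3. Every GATA6KO library was lower, replicate 2 by a small margin, and the difference did not pass the test (log2 fold change -0.48, SE 0.17, edgeR adjusted p = 0.116). Without GATA6KO replicate 2, the highest of its group, Ly6a passed, with a log2 fold change of -0.66 (adjusted p = 0.0269). This was the 1 alternative of 15 that called Ly6a. With any other library left out the edgeR adjusted p was 0.149 to 0.331. The level of Ly6a depends on how reads were divided among close relatives: of 1259 different words of 31 bases in its transcripts, 402 (31.9%) also occur in transcripts of other genes, foremost Ly6c1, Ly6i and Ly6c2. These neighbours were lower in each GATA6KO library than in any Control library too. Ly6c1 averaged 347 CPM in GATA6KO and 617 CPM in Control (adjusted p = 0.0750, not called). Ly6c2 averaged 4.59 CPM in GATA6KO and 13.1 CPM in Control, and Ly6i 0.419 CPM in GATA6KO and 0.966 CPM in Control.

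Msln (ENSMUSG00000063011, chromosome 17, 25748613 to 25754378) encodes mesothelin, an adhesion protein of mesothelium and of several carcinomas that binds the mucin Muc16. Msln had 89.8, 108 and 90.1 CPM in GATA6KO replicates 1 to 3, against 69.1, 63.0 and 77.1 CPM in Control replicates 1 to 3. The groups did not overlap, the SD within GATA6KO on the log2 scale was smaller than that of 77.0% of genes tested, and the test was missed narrowly (log2 fold change 0.46, SE 0.12, edgeR adjusted p = 0.0512). Msln passed under 6 of 15 alternatives, among them DESeq2 (adjusted p = 0.0174) and the library total alone (0.0360). Without any 1 of the Control replicates the edgeR adjusted p was 0.129 to 0.219, and with the replicate number as a block 0.126. Muc16 rose, from a low level: 1.57, 11.7 and 1.70 CPM in GATA6KO, against 0.175, 0.381 and 0.200 CPM in Control (log2 fold change 4.27, SE 0.98, adjusted p = 0.0373). It was not called without any 1 of the Control replicates (adjusted p of up to 0.163).

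Of the 3 secreted or released markers, Il33 rose. Il33 (ENSMUSG00000024810, chromosome 19, 29925114 to 29960718) encodes a nuclear cytokine of the interleukin 1 family that damaged epithelium releases as an alarm signal. Il33 had 101, 119 and 71.2 CPM in GATA6KO replicates 1 to 3, against 47.1, 48.0 and 57.2 CPM in Control replicates 1 to 3. All GATA6KO libraries were higher, with replicate 3 nearest to Control. The fit gave a log2 fold change of 0.93 (SE 0.19, edgeR adjusted p = 0.0284). The call was lost without any 1 of the 3 Control replicates (adjusted p = 0.117, 0.127 and 0.0985 without replicates 1, 2 and 3) and held without each GATA6KO replicate. The transcript of its receptor Il1rl1 had at most 2 counts in any library. Il1rap, the second chain of that receptor and of the interleukin 1 receptor, had 14.1, 16.7 and 17.1 CPM in GATA6KO and 8.89, 9.29 and 10.5 CPM in Control, and rose (log2 fold change 0.74, adjusted p = 0.0234, not called without any 1 of the Control replicates).

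Spp1 (ENSMUSG00000029304, chromosome 5, 104435118 to 104441050) encodes osteopontin, a secreted phosphoprotein that binds integrins and CD44. Spp1 had 2.51, 34.7 and 0.8005 CPM in GATA6KO replicates 1 to 3, against 16.3, 16.05 and 17.1 CPM in Control replicates 1 to 3. GATA6KO replicate 2 was above all Control libraries, at 2.10 times their mean, and the other GATA6KO libraries were far below all of them, with 75, 1057 and 24 counts in GATA6KO replicates 1 to 3. With an SE of 1.14, its log2 fold change of -0.38 did not pass the test (edgeR adjusted p = 0.849), and without GATA6KO replicate 2 it was -3.31 (adjusted p = 0.00933). On the log2 scale the SD of Spp1 over the GATA6KO libraries was 2.71, larger than that of all but 0.326% of the genes tested, and over the Control libraries it was 0.05. Of its 1753 words of 31 bases, 250 (14.3%) also occur in the overlapping gene Gm42793, which had at most 2 counts in a library. Among its receptors, Cd44 had 305, 556 and 303 CPM in GATA6KO and 263, 257 and 258 CPM in Control, which did not pass the test (adjusted p = 0.156).

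Clu (ENSMUSG00000022037, chromosome 14, 65968483 to 65981547) encodes clusterin, a secreted chaperone that marks rare cells which appear in the crypt after injury. Clu had 3.04, 20.0 and 4.64 CPM in GATA6KO replicates 1 to 3, against 9.46, 10.7 and 10.3 CPM in Control replicates 1 to 3. As for Anxa1 and Spp1, GATA6KO replicate 2 was above and the other GATA6KO libraries were below all Control libraries. The fit gave a log2 fold change of -0.14 (SE 0.66, edgeR adjusted p = 0.906), and without GATA6KO replicate 2 it was -1.41 (adjusted p = 0.0146). Genes of chromosome 14 had a median log2 ratio to the Control mean of -0.90 in GATA6KO replicate 2 (355 genes with at least 5 CPM in Control), against -0.09 and 0.04 in GATA6KO replicates 1 and 3. Clu was thus highest in the library in which its chromosome was lowest. The medians of the chromosomes of the other 8 markers lay between -0.10 and 0.11 in every GATA6KO library.

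**Figure D2:**
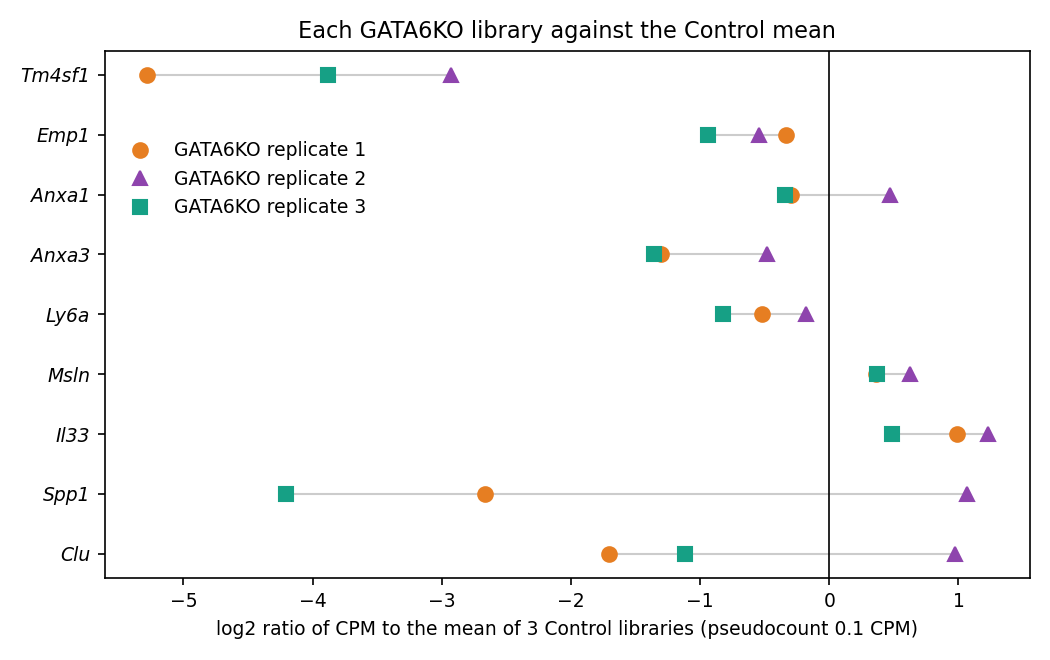
Log2 ratio of the CPM of each GATA6KO library to the mean of the 3 Control libraries (x axis, pseudocount 0.1 CPM) for the 9 markers (y axis), with 1 symbol per GATA6KO replicate and the vertical line at the Control mean. Replicate 2 (triangles) is the rightmost symbol for each marker except Emp1, and for Anxa1, Spp1 and Clu it lies on the other side of the line from replicates 1 and 3.

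The spread between the GATA6KO libraries thus had a shared direction among the markers. GATA6KO replicate 2 was the highest of its group for 8 of 9 markers, replicate 1 for 1 and replicate 3 for 0, where replicates 1, 2 and 3 were the highest for 37.5%, 32.4% and 30.1% of all genes tested. The median log2 ratio of the 9 markers to the Control mean was -0.52, 0.47 and -0.94 in GATA6KO replicates 1 to 3, where over all genes tested it was between -0.01 and 0.01 in each of the 3. The SD on the log2 scale was larger in GATA6KO than in Control for all 9 markers, as for 86.2% of all genes tested, with a median of 0.46 in GATA6KO and 0.09 in Control for the markers, and of 0.28 in GATA6KO and 0.09 in Control for all genes tested. Without GATA6KO replicate 2, 5 of the 9 markers were called lower (Tm4sf1, Anxa3, Ly6a, Clu and Spp1), and Il33 remained the 1 called higher, where 15.5% of 15128 genes tested were called, 8.59% higher and 6.91% lower. Leaving out the library that is highest for most markers lowers their values by construction, and the labels give no reason to set it aside. Without GATA6KO replicate 1, 2 markers were called higher and 2 lower, where 2235 of all genes tested were called higher and 2125 lower. That fit called 4360 genes in all, against 1823 with all 6 libraries. Without GATA6KO replicate 3, 1 marker was called higher and 1 lower, where 1086 of all genes tested were called higher and 748 lower. Shares of all genes tested were not taken for the fits without GATA6KO replicate 1 or 3, so their marker counts have no share beside them. With all 6 libraries 1018 genes were called higher and 805 lower. GATA6KO replicate 2 also had the most Gata6 transcript of its group, at 0.629 of the Control mean against 0.560 and 0.323 in replicates 1 and 3, and the part of this difference in the markers was not tested.

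**Figure D3:**
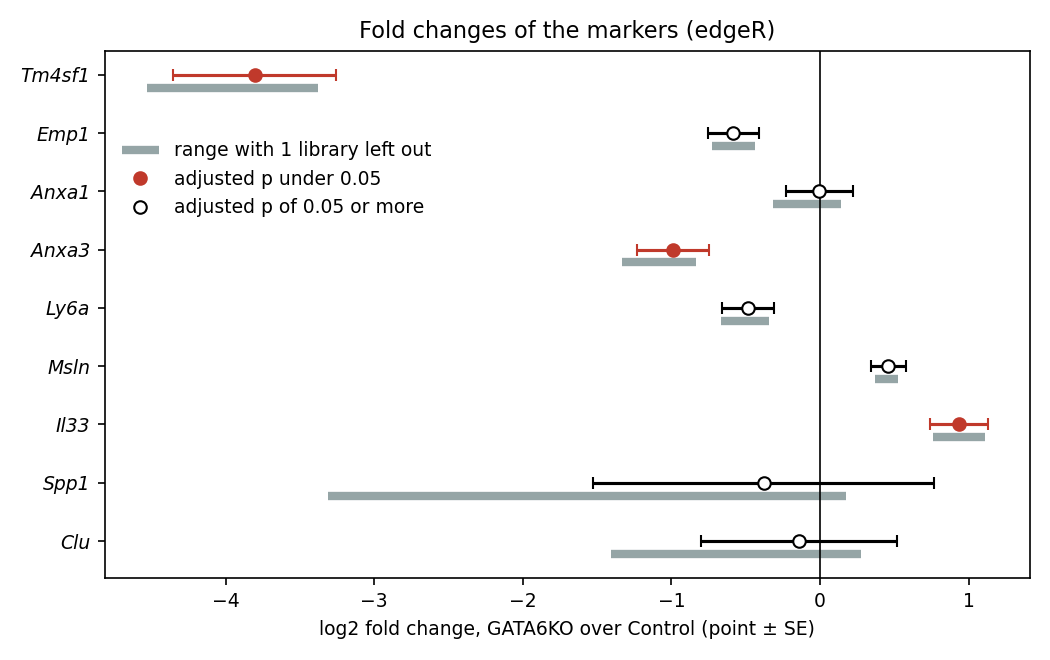
Log2 fold change of GATA6KO over Control for each marker (x axis, point ± SE from the edgeR fit, filled red where the adjusted p is under 0.05), with grey bars for the range over 6 fits that each leave out 1 library. The bars of Spp1 and Clu reach from -3.31 to 0.17 and from -1.41 to 0.28, while those of Tm4sf1, Anxa3, Il33, Msln, Emp1 and Ly6a stay on one side of 0.

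Levels can be set against each other only per length of transcript, here as CPM per kilobase of the joined exons of a gene. In GATA6KO the order was Ly6a (674 ± 150), Anxa1 (361 ± 122), Emp1 (110 ± 22.7), Anxa3 (69.4 ± 25.3), Il33 (33.6 ± 8.34), Msln (31.3 ± 3.31), Spp1 (7.68 ± 11.6), Clu (2.69 ± 2.73) and Tm4sf1 (0.444 ± 0.332 CPM per kilobase, SD, n = 3). In Control it was Ly6a (943 ± 89.1), Anxa1 (362 ± 23.4), Emp1 (165 ± 16.996), Anxa3 (138 ± 8.11), Msln (22.8 ± 2.32), Il33 (17.6 ± 1.94), Spp1 (9.996 ± 0.324), Tm4sf1 (6.23 ± 0.414) and Clu (2.96 ± 0.186 CPM per kilobase, SD, n = 3). No neighbours in the Control order overlapped in their ranges over the 3 libraries. In the GATA6KO order Emp1 and Anxa3, Il33 and Msln, and Spp1 and Clu overlapped. The first 4 ranks were thus held by the same genes in both groups, while Il33 and Msln exchanged places, as did Tm4sf1 and Clu.

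Of 40 further genes of the fetal or repairing gut, 32 were expressed enough to test, and 3 rose, 6 fell and 23 did not pass the test. Their median log2 fold change was -0.45. The growth factor gene Areg, an EGF receptor ligand, had 35.0, 22.5 and 7.74 CPM in GATA6KO and 103, 117 and 82.1 CPM in Control (log2 fold change -2.21, edgeR adjusted p = 0.0345). Il1rn, which blocks the interleukin 1 receptor, had 106, 143 and 87.3 CPM in GATA6KO and 223, 242 and 228 CPM in Control (log2 fold change -1.04, adjusted p = 0.0161). Cldn4, a tight junction claudin, had 156, 150 and 101 CPM in GATA6KO and 353, 348 and 350 CPM in Control (log2 fold change -1.37, adjusted p = 0.00559). Gja1, the gap junction protein connexin 43 and a marker of fetal spheroids, had 30.7, 62.7 and 50.1 CPM in GATA6KO and 24.1, 22.8 and 25.1 CPM in Control, and rose (log2 fold change 0.99, adjusted p = 0.0464). Ly6d, a relative of Ly6a, had 20.8, 11.2 and 16.8 CPM in GATA6KO and 4.29, 4.402 and 5.37 CPM in Control, and rose (log2 fold change 1.79, adjusted p = 0.00893). Of the genes of this list given by name here, Cldn4 and Anxa2 were called without each library in turn, and Areg, Il1rn, Gja1 and Ly6d were not called without 1 or more of the Control replicates (adjusted p of up to 0.176). Gja1 was also not called without GATA6KO replicate 2 or 3, and Areg not without GATA6KO replicate 2.

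The pattern of Anxa1, Spp1 and Clu across the GATA6KO libraries was not shared by this list at large. GATA6KO replicates 1 and 2 were the highest of their group for 14 of its 32 tested genes each, and replicate 3 for 4. Ccn2, a common readout of YAP activity and named here after its values were seen, had 13.98, 108 and 15.9 CPM in GATA6KO and 108, 111 and 147 CPM in Control (log2 fold change -1.41, adjusted p = 0.259). Of 17 binding partners and receptors of the markers, 11 were tested, with 2 higher and 1 lower, and GATA6KO replicate 2 was the highest of its group for 8 of the 11. Of 15 crypt stem cell genes, 13 were tested, with 2 higher, 3 lower and a median log2 fold change of 0.04. Rnf43 and Znrf3, ligases that remove Wnt receptors, rose by 0.54 and 0.83 on the log2 scale (adjusted p = 0.0264 and 0.0202), and Prom1 and Lrig1 fell by 1.17 and 0.54 (adjusted p = 0.00402 and 0.0475). Rnf43, Znrf3 and Lrig1 were not called without any 1 of the Control replicates, nor Lrig1 without GATA6KO replicate 1 or 2. Lgr5, the stem cell receptor for R-spondins, had 6.39, 7.70 and 2.37 CPM in GATA6KO and 78.0, 58.9 and 76.7 CPM in Control (log2 fold change -3.70, adjusted p = 0.00445). Of the 12 intestinal epithelial markers, 4 fell and 0 rose, with a median of -0.50, lower than that of the 9 markers in the main fit.

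**Figure D4:**
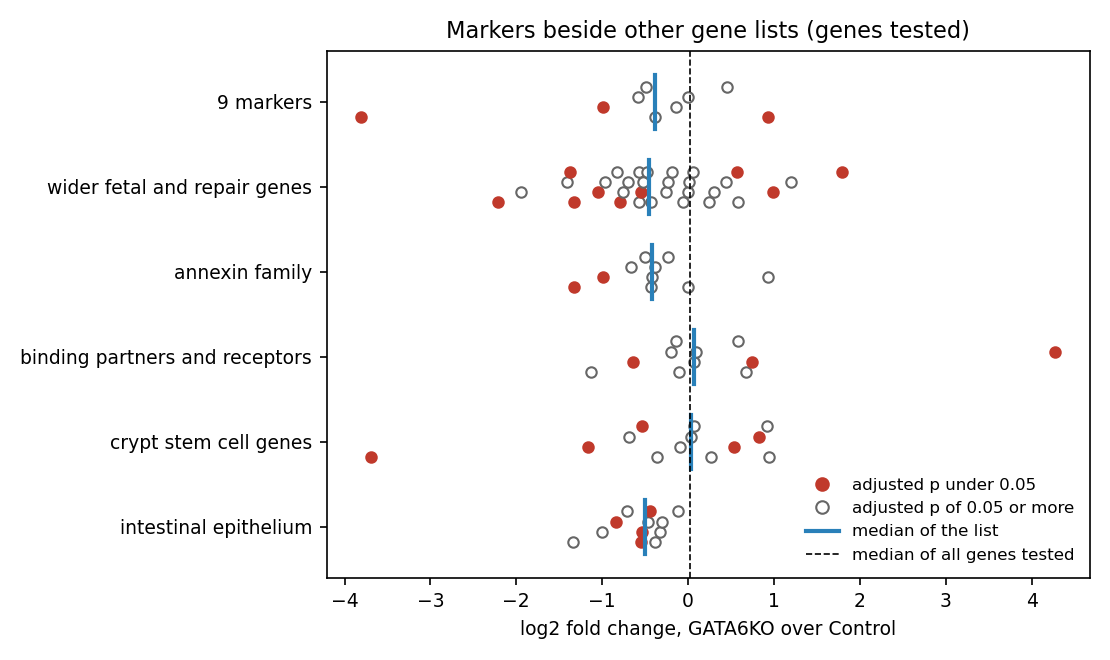
Log2 fold change of GATA6KO over Control (x axis) of each gene tested in the 9 markers and 5 other lists (y axis), filled red where the edgeR adjusted p is under 0.05, with the median of each list in blue and that of all genes tested as a dashed line. The medians lie at -0.38 for the 9 markers, -0.45 for the wider fetal and repair genes and -0.42 for the annexins. They lie at 0.06 for the partners, 0.04 for the crypt stem cell genes and -0.50 for the intestinal epithelium, against 0.02 for all genes tested. That of the 9 markers was 0.11, -0.66 and 0.14 without GATA6KO replicates 1, 2 and 3. Without Control replicates 1, 2 and 3 it was -0.37, -0.40 and -0.35. Medians with a library left out were taken for the 9 markers only.

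The genes most like a marker over the 6 libraries were sought among 9492 other genes with a mean of at least 10 CPM, by Pearson's r of log2 CPM. For Tm4sf1 they were Mcu, the pore of the mitochondrial calcium uniporter (r = 0.997), Ppargc1a, a coactivator of mitochondrial genes (r = 0.995), and Sema4a, a semaphorin (r = 0.993). For Anxa1, the marker with the highest CPM averaged over all 6 libraries without regard to length, they were Strn3, a striatin (r = 0.995), Loxl4, a lysyl oxidase (r = 0.987), and Ap1s3, a subunit of a clathrin adaptor (r = 0.986). Loxl4 had 7.32, 30.7 and 6.004 CPM in GATA6KO and 10.7, 10.6 and 14.9 CPM in Control, with GATA6KO replicate 2 again above and the other GATA6KO libraries below Control. These r are over 6 libraries of 2 groups, so that for Tm4sf1 they mostly follow the distance between the groups, and they are the highest of many. They describe these libraries only.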

How the data were processed

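RNA-seq of mouse AKP organoids (3 GATA6KO and 3 Control libraries) was analysed. Per the labels' protocols, poly(A)-selected RNA was made into strand-marking libraries. The authors deposited estimated counts per gene as whole numbers, not scaled between libraries. The submitters' processing notes name Salmon 1.3.0 and mm10 but no role for either. How transcripts were summed to genes, and by which annotation, is not given in the sources used here.

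Symbols and coordinates came from GENCODE M21, which matched 54096 of 54418 identifiers. Genes kept by edgeR's filterByExpr (defaults, 10 counts at the median library size in 3 libraries and 15 in total) were TMM-scaled and compared by the quasi-likelihood test with robust estimation, 2-sided, with Benjamini-Hochberg adjustment over 14714 genes. The SE of a log2 fold change was taken from its size and the F statistic (size over root F). The tools were edgeR 4.0.16, DESeq2 1.42.0 and limma 3.58.1 in R 4.3.3, and the test was checked on simulated counts. The 9 members and all lists were chosen with earlier results of these data known. Every member is named, as are called genes of the other lists (the 6 largest where more were called), of which some are given by count only. Epcam, Anxa6, Cd44, Ccn2, Ly6c1, Ly6c2, Ly6i and Gm42793 were named after their values were seen. Lists were described by counts, with no set test. Alternatives were other scalings, DESeq2, limma-voom, 2 other filters, no robust estimation, a replicate block, no chromosome 14 and each library left out in turn. No label says that the replicate numbers pair the libraries, so the main fit used no replicate block.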

Additional observations from a re-analysis of the deposited data

How the results depend on the processing

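The direction of Tm4sf1, Anxa3, Il33, Msln, Emp1 and Ly6a was kept under each of the 15 alternatives, and calls were made in 14, 8, 11, 6, 3 and 1 of them. Anxa1 turned to 0.075 with the library total alone and to 0.011 with no filter. With 1 library left out the log2 fold change ran from -0.32 to 0.14 for Anxa1, from -1.41 to 0.28 for Clu and from -3.31 to 0.17 for Spp1. Spp1 was at -0.38 in the main fit, -1.98 with limma-voom and -2.02 with the replicate block. For Clu these values were -0.14, -0.63 and -0.64, and neither gene was called in these fits. Markers called higher were 2 instead of 1 with the library total alone, DESeq2, no filter, the stricter filter (1 CPM in each library of a group), and without chromosome 14, through Msln. With 1 library left out they were 0 to 2, and those called lower 0 to 5, instead of 2. Markers called lower were 1 with the library total alone and 3 with DESeq2, which added Emp1. With no filter they were 2, with Emp1 called in place of Anxa3. Genes called were 3155 with DESeq2 instead of 1823. They were 1982 with the library total alone, 1811 with no filter, 1771 with the stricter filter and 1880 without chromosome 14. With 1 library left out they were 332 to 4360: 425, 389 and 332 without Control replicates 1, 2 and 3, and 4360 without GATA6KO replicate 1. With the replicate number as a block 827 genes were called, 0 markers higher and 2 lower (Il33 adjusted p = 0.0755). The deviations of same-numbered libraries correlated at r = -0.01, 0.07 and -0.09. These r show no pairing by number but, with 3 libraries a group, cannot exclude it. The causes of these differences were not tested. Tm4sf1, Spp1 and Clu had 17, 24 and 91 counts in their lowest library, which limits the precision of their levels.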
